A study of Arabidopsis lyrata subsp. lyrata and Arabidopsis thaliana with 7 samples.

Results

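Arabidopsis thaliana, the annual and mostly self-fertilizing model plant, and Arabidopsis lyrata, its perennial and mostly outcrossing relative, were compared gene by gene in whole vegetative rosettes. The unit of comparison was the ortholog pair, an A. lyrata gene model for which the deposited annotation names exactly 1 A. thaliana gene. Of 32793 A. lyrata models, 22051 had such a partner, and all of these had counts in both tables. A further 92 models named 2 or more A. thaliana genes and were left out. Each species had 2 libraries, from A. thaliana Col-0 and from A. lyrata MN47. By the labels, plants of both accessions were raised on soil at 21°C in 16 h light and 8 h dark and received no special treatment, and the study's methods give a cooler night and an age of 3 weeks for A. lyrata. The age of the A. thaliana plants is not given in the sources used here. The labels do not say whether the 2 libraries of a species came from separate plants, so the tests below read a species difference against the spread between these libraries, which may be technical. Species, genome assembly, gene annotation and count table changed together here and cannot be told apart.

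A rosette at this stage is mostly leaf blade, and its messenger RNA is dominated by the genes of photosynthesis. Light-harvesting proteins feed energy to the photosystems, and the Calvin-Benson cycle fixes carbon with it. Leaves of the mustard family also make glucosinolates, sulfur-containing defence compounds that myrosinases hydrolyse when tissue is damaged, and specifier proteins then decide which products form.

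The 4 libraries held between 11352885 and 14100185 reads in the pairs, 87.7% to 89.6% of all reads counted in gene models. Levels are given as CPM, the count scaled to a total of 1000000 over the pairs, with A. thaliana library 1 and 2 first and A. lyrata library 1 and 2 after them. The floor of a library, 3 reads, came to 0.213 to 0.264 CPM. Both species had leaf profiles. Across the 22 function lists the 4 photosynthesis and photorespiration lists held ranks 1 to 4 in every library, while the 8 paired floral identity genes together reached 2.69, 19.99, 5.83 and 0.683 CPM. The 6 root markers summed to 0.426, 1.85, 0.700 and 0.0854 CPM, and the 4 paired pollen markers to at most 0.352 CPM. The 6 shoot meristem markers summed to 6.95, 7.75, 5.52 and 1.28 CPM, so both A. thaliana libraries lay above both of A. lyrata.

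In both species the 2 libraries were not alike. The second A. lyrata library stood apart in the circadian clock genes described below, and the second A. thaliana library in genes of cold response. The cold response list summed to 554 and 3330 CPM in A. thaliana against 1113 and 756 CPM in A. lyrata. RD29A, a gene induced by cold and drought, had 20.1 and 835 CPM in A. thaliana against 59.3 and 28.4 CPM in A. lyrata. AOS, a jasmonate synthesis enzyme, had 119.9 and 702 CPM against 92.2 and 38.1 CPM. The jasmonate list as a whole did not set the second A. thaliana library apart. Its sums were 1232 and 5925 against 13666 and 5059 CPM. Of 17257 pairs with enough reads to test, 13.98% differed more than 2-fold between the A. thaliana libraries, mostly with the higher value in library 2 (10.9% against 3.04%), and 15.72% between the A. lyrata libraries, mostly with the higher value in library 1 (12.7% against 3.06%). On log2(CPM + 0.5) the correlation across genes was 0.944 within A. thaliana, 0.924 within A. lyrata, and 0.751 to 0.786 between libraries of different species. These are correlations over genes, which are not independent replicates.

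Most pairs were used in both species. At least 5 reads in each of the 4 libraries were found for 15820 pairs (71.7%), and 1766 pairs (8.01%) had no read in any. At least 5 reads in both A. thaliana libraries with none in A. lyrata were found for 147 pairs, and the reverse for 320, of which 138 are covered by other genes as described below. The leading genes were also shared. The 100 pairs with the most reads overlapped by 88 between the A. thaliana libraries, by 82 between the A. lyrata libraries, and by 73 to 78 between species. Species means lay more than 2-fold apart for 28.1% of the pairs tested, more than 4-fold for 9.94% and more than 8-fold for 4.68%.

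With the quasi-likelihood test of edgeR and Benjamini-Hochberg adjustment over all 17257 pairs, 562 pairs (3.26%) were higher in A. thaliana and 873 (5.06%) were higher in A. lyrata at an adjusted p under 0.05. The median absolute log2 ratio was 2.83 in the first group and 4.1 in the second, and no called pair had an absolute log2 ratio below 1.2. In all 1435 called pairs both libraries of 1 species lay above both of the other. Such separation was frequent, with 31% of tested pairs separated towards A. thaliana and 28.9% towards A. lyrata. The median log2 ratio over all tested pairs, A. thaliana over A. lyrata, was 0.05. The calls depended on the libraries, most on those of A. thaliana and least on A. lyrata library 1. Without A. thaliana library 1 no pair was called in either direction in edgeR (1658 and 1636 at an unadjusted p under 0.05), without A. thaliana library 2 the counts were 23 and 106, and without A. lyrata library 2 they were 240 of 17879 (1.34%) and 602 (3.37%).

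**Figure D1:**
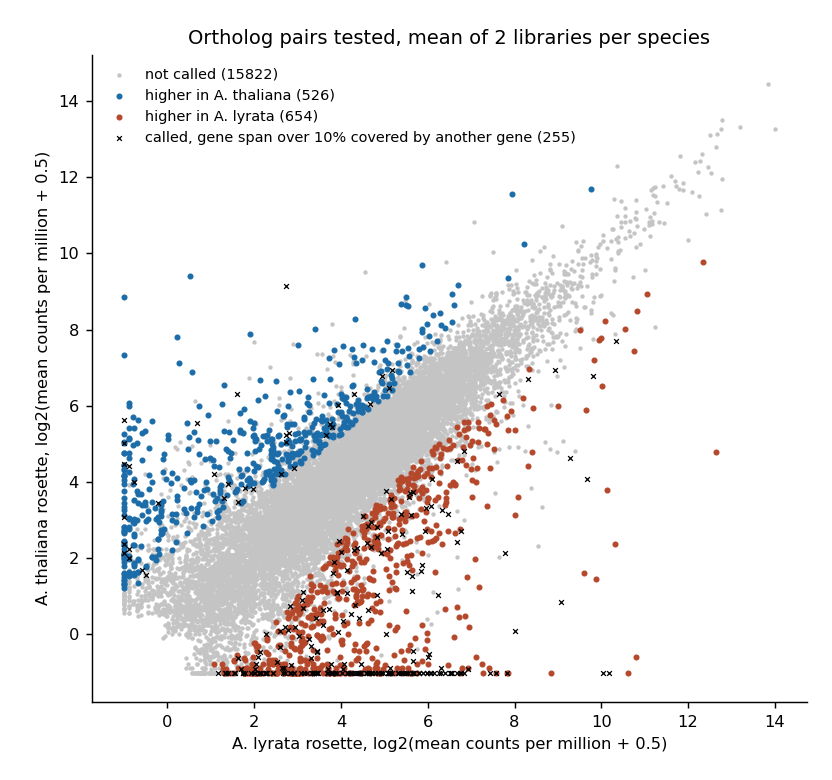
Each point is 1 of the 17257 ortholog pairs tested, with the mean of the 2 A. lyrata libraries on the x axis and of the 2 A. thaliana libraries on the y axis, both as log2(CPM + 0.5). Grey points were not called, blue points (526) were higher in A. thaliana, red points (654) were higher in A. lyrata, and crosses (255) mark called pairs whose gene is covered over more than 10% of its span by another gene. Many crosses lie along the bottom edge, where A. thaliana had no reads.

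Gene overlap was tied to the calls. Of 32678 genes in the A. thaliana table, 4194 overlap another gene in position, and 448 lie wholly inside other genes. All 448 had 0 reads in both A. thaliana libraries. The A. lyrata table has fewer overlapping models, 910 of 32793, and there too all 289 wholly covered models had 0 reads in both rosette libraries. Among pairs above 10 CPM in both A. lyrata libraries, 58 of 58 whose A. thaliana gene was wholly covered had no A. thaliana read, against 39 of 8658 (0.450%) whose A. thaliana gene overlapped nothing. How the counts treated reads that fit 2 genes is not given in the sources used here. For the 105 tested pairs with a wholly covered A. thaliana gene the median log2 ratio was -10.77, for 143 pairs covered over 50 to 99% it was -3.07, and for 14379 pairs with no overlap it was 0.07. Of the 873 pairs called higher in A. lyrata, 219 (25.1%) were covered over more than 10% of the span in either table, as were 36 (6.41%) of the 562 called higher in A. thaliana and 5.29% of all tested pairs. When covered pairs were left out, an alternative chosen after the data were seen, 405 of 16344 pairs (2.48%) were higher in A. thaliana and 543 (3.32%) in A. lyrata.

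**Figure D2:**
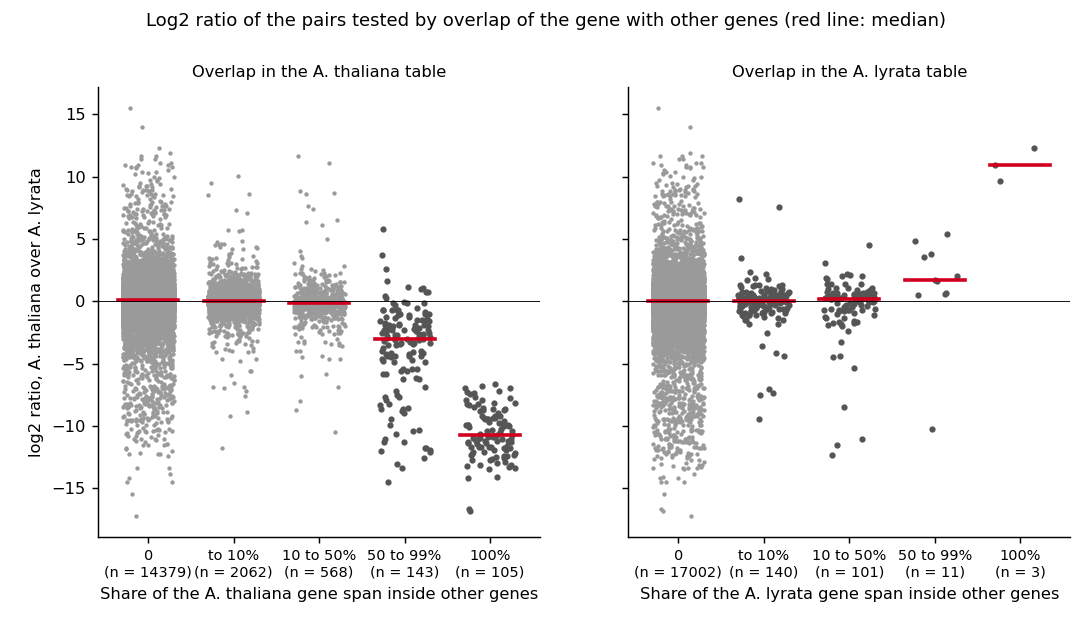
Log2 ratio (A. thaliana over A. lyrata) of each tested pair, grouped by the share of the gene's span that lies inside other genes of the A. thaliana table (left) or of the A. lyrata table (right), with n below each group and the median as a red line. The median falls from 0.07 without overlap to -10.77 for wholly covered A. thaliana genes, and is 10.93 for the 3 tested pairs with a wholly covered A. lyrata model.

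The overlap bears on the strongest differences. Each of the 12 pairs with the lowest log2 ratios among well expressed pairs of like coding length had no read in either A. thaliana library, and each A. thaliana gene of the 12 was covered over more than 99% of its span. GER1, a germin-like protein of the cell wall (AT1G72610, chromosome 1, 27339114 to 27340044 in TAIR10.1), had 0 and 0 CPM against 818 and 1491 CPM. It lies inside AT1G72600, which had 38 and 42 reads. MT2B, a metal-binding metallothionein (AT5G02380), had 0 and 0 CPM against 1256 and 859 CPM and lies inside AT5G02370. Others among the 12 share their exact span with a second locus that also had no read, as for the translation initiation factor gene AT1G36730 and AT1G36732. For these genes an absence of transcript in A. thaliana and a loss in counting cannot be told apart, and their fold differences are not given.

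Among pairs covered over at most 10% of the span, the same criteria gave 69 pairs higher in A. thaliana and 94 higher in A. lyrata. This selection was made after the values were seen. CRT1a, a calreticulin that folds glycoproteins in the endoplasmic reticulum, had 188 and 134 CPM in A. thaliana and no read in either A. lyrata library, at least 658-fold higher against the floor of 3 reads per library. Its close paralog CRT1b went the other way, with 133 and 117 CPM against 332 and 315 CPM (log2 ratio -1.37 ± 0.27 SE, adjusted p = 0.0491, edgeR). Summed, the 2 genes came to 321, 251, 332 and 315 CPM, with overlapping species ranges. Whether reads or orthologs of these near copies were exchanged was not tested.

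AT1G23130, a member of the polyketide cyclase and lipid transport family, had 521 and 844 CPM in A. thaliana against 1.01 and 0.854 CPM, a log2 ratio of 9.50 ± 0.52 (adjusted p = 0.00881, edgeR). TPS11, a class II trehalose phosphate synthase, had 338 and 183 CPM against 13.1 and 6.92 CPM and was 26.1-fold higher. DELTA-TIP, a water channel of the vacuole membrane, had 1025 and 626 CPM against 69.0 and 46.0 CPM. Both libraries of A. thaliana lay far above both of A. lyrata in these 3 genes. The sulfurtransferase STR16 was 26.1-fold, the EXORDIUM-like gene EXL2 17.7-fold and the NB-ARC disease resistance gene AT1G61190 12.5-fold higher in A. thaliana, with adjusted p from 0.0096 to 0.020. AT1G07590, a tetratricopeptide repeat gene, was 92.1-fold higher (436 and 688 against 6.14 and 6.07 CPM), but 14.6% of its span overlaps the metallothionein gene AT1G07600, which had 0 reads.

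On the A. lyrata side, SBP2, a selenium-binding protein, had 171 and 177 CPM in A. thaliana against 1779 and 1662 CPM, 9.88-fold higher with a log2 ratio of -3.30 ± 0.30 (adjusted p = 0.0108, edgeR). MES16, a methyl esterase that acts in chlorophyll breakdown, had 16.2 and 25.3 CPM against 252 and 386 CPM. AT1G21440, annotated in the phosphoenolpyruvate carboxylase family, had 65.6 and 51.3 CPM against 839 and 759.8 CPM. The libraries within a species were close in all 3 genes and the species did not overlap. G6PD3, a plastid glucose-6-phosphate dehydrogenase, was 16.9-fold, the serine carboxypeptidase-like gene SCPL7 16.7-fold and the acyl-activating enzyme AAE18 14.6-fold higher in A. lyrata, with adjusted p from 0.00933 to 0.0130.

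Function was followed through 22 lists with 428 genes, of which 396 were paired and 371 tested. Of these, 7 (1.89%) were higher in A. thaliana and 22 (5.93%) in A. lyrata, beside 3.26% and 5.06% of all pairs, and 5 lists had no called member. Without covered pairs the counts were 6 and 13 of 355. Of the 9 calls lost towards A. lyrata, 6 were covered genes (APL1, BCAT4, CYP81F1, F3H, FER1 and DCL2), and CP12-2, GSTF9 and GL3 moved just past the threshold. The order of the lists by summed level was similar in all libraries, with a Spearman correlation over the 22 lists of 0.938 within A. thaliana, 0.915 within A. lyrata and 0.903 to 0.948 between species. Summed levels did not overlap between species for 4 lists only, aliphatic glucosinolates, indole glucosinolates, starch turnover and trichome patterning. The separation of the indole list rested on GSTF9, and that of starch turnover was narrow without covered genes, as given below. With 2 libraries against 2 an exact two-sided permutation test of a sum cannot go below p = 0.333, so the sums are described without a test. Where list calls below are followed without 1 library, it is A. lyrata library 2. All list calls were lost without A. thaliana library 1, and nearly all were lost without A. thaliana library 2.

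**Figure D3:**
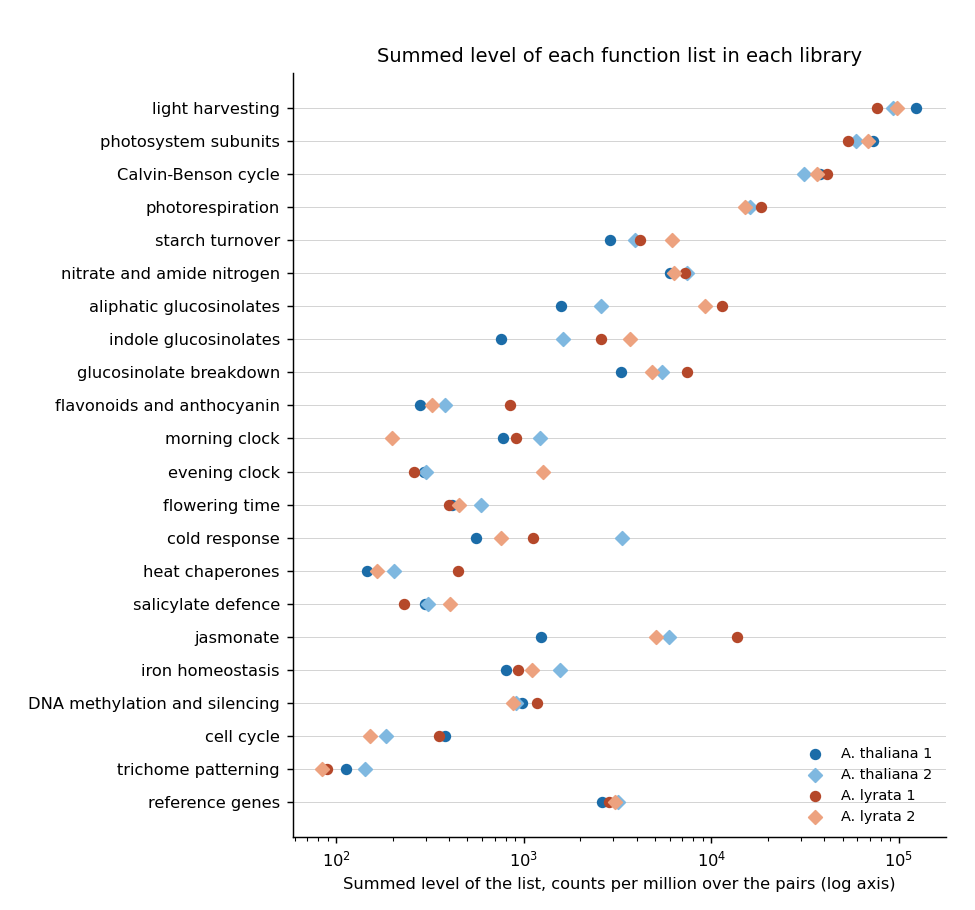
Summed level of the paired members of each of the 22 function lists, in CPM on a log axis, with 1 point per library (dark and light blue for A. thaliana libraries 1 and 2, red and orange for A. lyrata libraries 1 and 2). Photosynthesis lists sit at the right in all 4 libraries. The aliphatic glucosinolate sums of A. lyrata (11389 and 9205 CPM) lie to the right of those of A. thaliana (1573 and 2593 CPM).

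The photosynthesis genes took similar shares of the reads in the 2 species. Light harvesting summed to 123313 and 93331 CPM in A. thaliana against 76593 and 97614 CPM in A. lyrata, the photosystem subunits to 72565 and 58781 against 53670.2 and 68284 CPM, and the Calvin-Benson cycle to 38049.9 and 31276 against 41222 and 36365 CPM. The ranges overlapped in all 3 lists. The pairs with the most reads were nearly the same. CAB1, LHCA4, RCA, LHB1B2 and LHCB3 led in A. thaliana, and LHB1B2, CAB1, RCA, PSBR and LHCA4 in A. lyrata. RCA is rubisco activase, PSBR is a subunit of photosystem II and the others are antenna proteins. None of these 6 was called, and none of the 23 photosystem genes was called by edgeR (1 at an unadjusted p under 0.05) or by DESeq2.

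Ratios of light harvesting to the other photosynthesis lists did not overlap between species, although the differences were small. Light harvesting over photosystem subunits was 1.7 and 1.59 in A. thaliana against 1.43 and 1.43 in A. lyrata, and light harvesting over the Calvin-Benson cycle 3.24 and 2.98 against 1.86 and 2.68. Photorespiration over the Calvin-Benson cycle overlapped at 0.407 and 0.512 against 0.444 and 0.417. Of 17 light harvesting genes 8 were separated towards A. thaliana and 1 towards A. lyrata, beside 31% and 28.9% of all tested pairs. The list's median log2 ratio was 0.49. Only LHCB4.2, a minor antenna protein of photosystem II, was called, with 3993 and 2667 CPM against 921 and 807 CPM (3.85-fold, adjusted p = 0.0413 in edgeR, 0.137 without A. lyrata library 2). Its A. lyrata coding region is annotated with 864 bases and that of A. thaliana with 684. LHB1B2 ran the other way without passing the test, at 11555 and 8147 CPM against 13867 and 18709.6 CPM. LHB1B2 and CAB1 belong to the LHCB1 genes, near copies of each other among which reads could be split.

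Single enzymes of carbon and nitrogen metabolism were called. CP12-2, a small regulator that holds Calvin-Benson enzymes inactive in the dark, had 185 and 241 CPM against 719 and 1249 CPM (adjusted p = 0.0431). PGLP1, the phosphoglycolate phosphatase that begins photorespiration, had 256 and 252 against 752 and 699 CPM (2.85-fold higher in A. lyrata, adjusted p = 0.0422), although A. thaliana carries a near-identical copy that could share its reads. GLN1.3, a cytosolic glutamine synthetase, was 4.35-fold higher in A. lyrata (adjusted p = 0.0408, edgeR throughout). No other member was called among 16 Calvin-Benson, 13 photorespiration and 17 nitrogen genes tested. Without A. lyrata library 2 only the call of GLN1.3 held among these 3 (adjusted p = 0.0343).

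The subunits of ADP-glucose pyrophosphorylase, the first committed enzyme of starch synthesis, differed in opposite directions. ADG1, the small catalytic subunit, had 383 and 379 CPM in A. thaliana against 73.6 and 47.4 CPM in A. lyrata (6.30-fold, log2 ratio 2.65 ± 0.35, adjusted p = 0.0206 in edgeR and 0.0604 without A. lyrata library 2). APL1, the main leaf large subunit, had 106 and 138 CPM against 414 and 556 CPM (3.98-fold, adjusted p = 0.0350 in edgeR and 0.0937 without A. lyrata library 2), and 71.8% of its A. thaliana span is covered. Starch turnover summed to 2899 and 3898 CPM against 4181 and 6168 CPM, and its median log2 ratio was -0.45 with 23 of 25 members not called. Without members covered over more than 10% of the span the sums were 2793 and 3760 against 3766 and 5611 CPM, so the species ranges nearly met.

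The clearest difference in a whole pathway was in aliphatic glucosinolates, which are built from methionine. Their 26 paired genes summed to 1573 and 2593 CPM in A. thaliana and to 11389 and 9205 CPM in A. lyrata, a ratio of 4.94. As a share of the Calvin-Benson sum this was 0.0413 and 0.0829 against 0.276 and 0.253. All 26 were tested, 21 of them were higher in both A. lyrata libraries than in either A. thaliana library, and none was separated the other way, beside 28.9% and 31% of all tested pairs. The median log2 ratio was -1.81 beside 0.05 over all pairs. In rank the list stood 9th and 11th of 22 in A. thaliana and 6th and 5th in A. lyrata. Only 4 of the 26 members passed the test, all higher in A. lyrata, beside 5.06% of all tested pairs. Among them only AOP3 and GSTU20 kept their call without A. lyrata library 2.

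AOP3, a dioxygenase that modifies the side chain (AT4G03050, chromosome 4, 1343845 to 1346436 in TAIR10.1; AL6G48680, scaffold 6, 23308613 to 23311001), had 1 and 3 reads in A. thaliana, 0.0709 and 0.264 CPM, against 2005 and 1531 CPM in A. lyrata. The ratio of pooled reads was 11321, with a 95% counting interval of 4421 to 41552 and an adjusted p of 0.00881 in edgeR. The AOP genes are tandem copies, and of them AOP1 was at 2.77 and 6.69 against 9.25 and 1.45 CPM. Whether reads or orthologs were exchanged among these copies was not tested. Without AOP3 the list still summed to 9384 and 7674 CPM in A. lyrata, 4.09-fold the A. thaliana sum.

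The other called members act early and in the middle of the pathway. BCAT4, the aminotransferase of the first step, had 59.5 and 159.6 CPM against 974 and 809.9 CPM (8.14-fold, adjusted p = 0.0450), with 12.1% of its A. thaliana span covered. IPMI-LSU1, the large subunit of isopropylmalate isomerase in chain elongation, had 289 and 309 against 1151 and 1019 CPM (3.63-fold, adjusted p = 0.0303). GSTU20, a glutathione transferase of the core pathway, had 402 and 309 against 2205 and 1419 CPM (5.09-fold, adjusted p = 0.0331, edgeR throughout). The species ranges were far apart in all 3 genes.

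Several further steps lay just outside the threshold with separated ranges. CYP83A1, the cytochrome P450 that oxidizes aliphatic aldoximes, had 134 and 333 CPM against 1329 and 1215 CPM (adjusted p = 0.0568). SOT18, the sulfotransferase of the last core step, had 22.5 and 65.5 against 323 and 315 CPM (adjusted p = 0.0523), and FMO-GSOX3, a side chain S-oxygenase, had 13.5 and 46.2 against 312 and 228 CPM (adjusted p = 0.0558). MYB28, the main activator of the pathway, had 25.5 and 80.8 against 159 and 202 CPM (adjusted p = 0.140). In each of these the second A. thaliana library was more than 2-fold above the first.

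**Figure D4:**
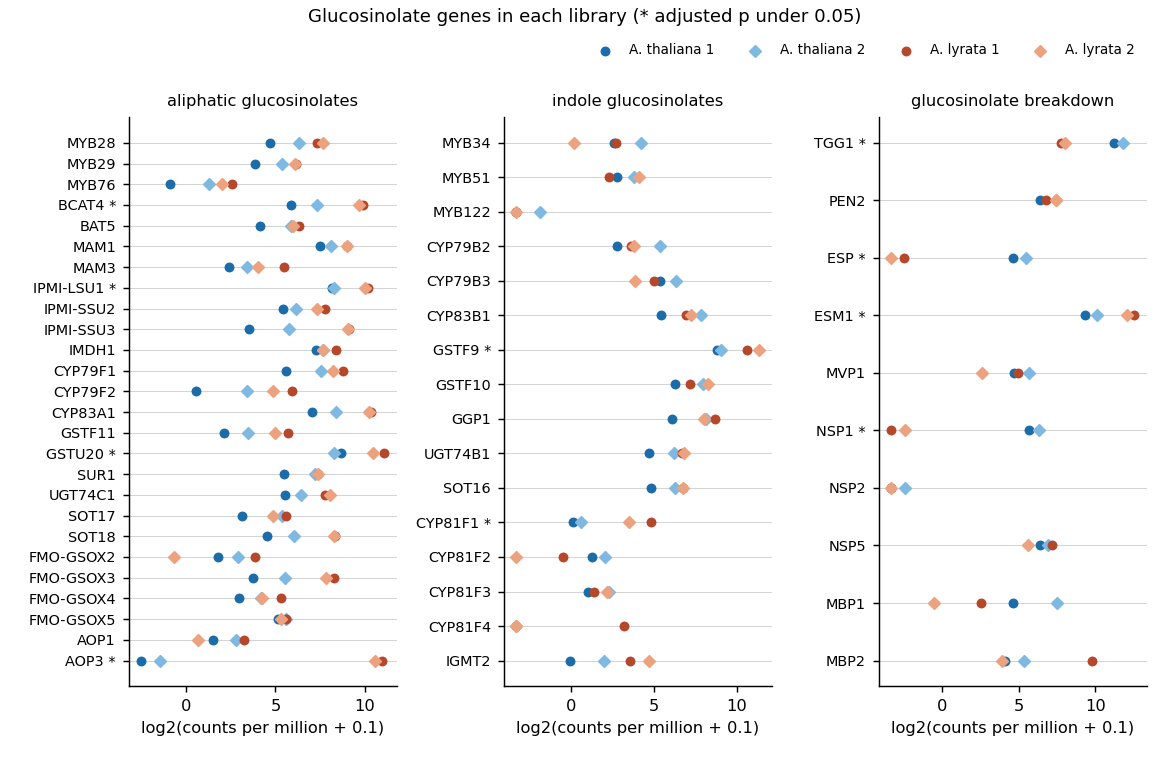
Level of each paired glucosinolate gene in each library, as log2(CPM + 0.1), for aliphatic synthesis (left), indole synthesis (middle) and breakdown (right), with dark and light blue for A. thaliana libraries 1 and 2 and red and orange for A. lyrata libraries 1 and 2. Stars mark an adjusted p under 0.05. The A. lyrata points lie right of the A. thaliana points for 21 of 26 aliphatic genes, while TGG1, ESP and NSP1 show the reverse.

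Indole glucosinolate genes, which start from tryptophan, were split in direction. The sum was 754 and 1622 CPM against 2590.1 and 3681 CPM, and much of it was GSTF9, a glutathione transferase with 443 and 536 against 1593 and 2659.8 CPM (adjusted p = 0.0422 in edgeR, 0.104 without A. lyrata library 2). With GSTF9 taken out, the sums overlapped between species. The median log2 ratio over the 14 tested members was -0.26, with 2 separated towards A. thaliana and 5 towards A. lyrata, beside 31% and 28.9% of all tested pairs. CYP79B2 and CYP79B3, the entry enzymes, were not called. CYP81F1 was called at 0.993 and 1.41 against 28.1 and 11.3 CPM, but 81.8% of its A. thaliana span is covered.

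Breakdown genes were split. TGG1, the major leaf myrosinase (AT5G26000, chromosome 5, 9079452 to 9082384), had 2367 and 3668 CPM in A. thaliana against 220.4 and 267 CPM in A. lyrata, 12.4-fold with a log2 ratio of 3.63 ± 0.39 (adjusted p = 0.0144). ESP, the epithiospecifier protein, had 24.3 and 45.1 CPM against 0.0777 and 0 CPM, and NSP1, a nitrile specifier, had 51.6 and 82.3 CPM against 0 and 0.0854 CPM. Each of the 2 specifiers had 1 read in A. lyrata in all. The ratio of pooled reads was 824 for ESP, with a 95% counting interval of 148 to 32600.2, and 1603 for NSP1, with an interval of 287 to 63370.8.

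ESM1, the epithiospecifier modifier that favours isothiocyanates, went the other way with 634 and 1121 CPM against 6016 and 4303 CPM (5.88-fold, adjusted p = 0.0369). Its A. lyrata coding region is annotated with only 456 bases against 1179 in A. thaliana. All 4 breakdown calls held without A. lyrata library 2 in edgeR, but none held without A. thaliana library 1. PEN2, an atypical myrosinase, overlapped at 85.9 and 173 against 109 and 176 CPM. MBP2, a myrosinase-binding protein, had 17.38 and 40.5 against 888 and 15.2 CPM, so its A. lyrata level rested on 1 library.

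Of 21 tested flavonoid genes 4 were called, all higher in A. lyrata, beside 5.06% of all pairs. None was separated towards A. thaliana and 9 were towards A. lyrata, beside 31% and 28.9% of all tested pairs. The enzymes called act on the way to flavonols. CHI, chalcone isomerase, had 6.88 and 7.93 CPM against 48.6 and 39.4 CPM (5.94-fold, adjusted p = 0.0149). FLS1, flavonol synthase, had 5.25 and 9.42 CPM against 70.3 and 48.6 CPM (8.10-fold, adjusted p = 0.0235). F3H had 0.142 and 0.0881 CPM against 79.0 and 20.9 CPM, with 94.5% of its A. thaliana span covered. GL3, a bHLH regulator of trichomes and anthocyanin, had 0.780 and 0.176 CPM against 15.5 and 7.09 CPM (adjusted p = 0.0440). CHS, the entry enzyme, overlapped at 80.6 and 41.8 against 149 and 37.5 CPM, and DFR, the first step to anthocyanin, had 11.6 and 1.67 against 19.7 and 0 CPM. The list's median log2 ratio was -2.01, and the sums were 279.7 and 378 against 841 and 323 CPM, so that A. lyrata library 2 lay inside the A. thaliana range.

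Flowering time genes showed a narrow set of differences. FLC, the MADS repressor that vernalization silences (AT5G10140, chromosome 5, 3173382 to 3179448; AL6G20280, scaffold 6, 4017060 to 4023394), had 10 and 1 reads in A. thaliana, 0.709 and 0.0881 CPM, against 50.8 and 74.7 CPM in A. lyrata. The log2 ratio was -7.19 ± 0.77 (adjusted p = 0.0144), and the ratio of pooled reads was 144 with a 95% counting interval of 80.2 to 289. FRI, which raises FLC transcription, was not called at 7.52 and 7.4 against 6.22 and 5.81 CPM (adjusted p = 0.590), and its coding region is annotated with 945 bases in A. thaliana and 1803 in A. lyrata. Col-0 is known to carry a disrupted FRI allele.

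CO, the photoperiod activator of flowering, had 1.13 and 0.793 CPM against 10.6 and 11.5 CPM (11.5-fold higher in A. lyrata, adjusted p = 0.0181). The calls of FLC and CO both held without A. lyrata library 2 in edgeR, but not without A. thaliana library 1. FT, the mobile flowering signal, had 0.567 and 20.9 CPM against 3.73 and 0.171 CPM, and SOC1 had 84.9 and 195 against 58.6 and 50.5 CPM (adjusted p = 0.140). In both genes the second A. thaliana library was the highest, as it was for the floral marker sum (19.99 CPM against 0.683 to 5.83 CPM in the other 3 libraries).

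The clock genes set 1 library apart and gave no species call. None of 10 morning genes and none of 10 tested evening genes was called by edgeR, with 2 and 1 at an unadjusted p under 0.05, and DESeq2 called 1 in each list. The morning list summed to 775, 1216, 910.3 and 198 CPM and the evening list to 294, 302, 259 and 1266 CPM. The ratio of evening over morning was 0.380 and 0.249 in A. thaliana, 0.285 in A. lyrata library 1 and 6.39 in A. lyrata library 2. CCA1, a dawn MYB factor, had 27.2, 99.8, 51.5 and 1.54 CPM. TOC1, which peaks at dusk, had 32.3, 24.8, 8.86 and 388 CPM, and FKF1, a blue light receptor of late day, had 0.922, 2.38, 0.233 and 137 CPM. In the list sums A. lyrata library 1 was thus near the A. thaliana libraries and library 2 was apart from all. Single genes of A. lyrata library 1 departed, with TOC1 and FKF1 below both A. thaliana libraries. The hour of harvest is not given in the sources used here. Only PRR3, at 2.13 and 1.41 against 16.6 and 190.3 CPM, was higher in both A. lyrata libraries by a wide margin (adjusted p = 0.0646 with all libraries, 0.0376 without A. lyrata library 2).

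**Figure D5:**
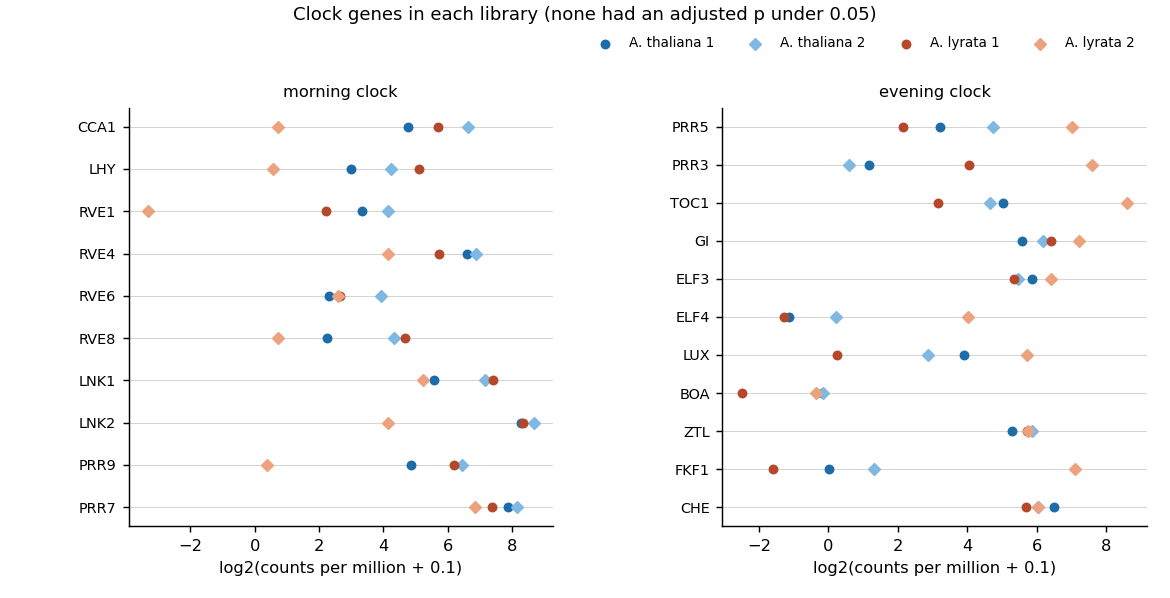
Level of each paired clock gene in each library, as log2(CPM + 0.1), for morning genes (left) and evening genes (right), with dark and light blue for A. thaliana libraries 1 and 2 and red and orange for A. lyrata libraries 1 and 2. The second A. lyrata library is lowest for most morning genes (CCA1 1.54 CPM) and highest for most evening genes (TOC1 388 CPM), while the other A. lyrata library falls near or within the A. thaliana range for CCA1, PRR9 and GI.

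Hormone and stress lists varied widely between libraries of 1 species. VSP1, a vegetative storage protein induced by jasmonate, varied within both species too but was called, with 13.5 and 41.0 CPM in A. thaliana against 8948 and 3760.4 CPM in A. lyrata (233-fold, log2 ratio -7.87 ± 0.93, adjusted p = 0.0174). Its paralog VSP2 had 26.2 and 103 against 702 and 214 CPM without passing the test (adjusted p = 0.130). No other of 23 jasmonate genes was called. LOX2, the leaf lipoxygenase of jasmonate synthesis, had 511 and 2676 against 2211 and 231 CPM, so that high and low libraries occurred in both species. The jasmonate sums of 1232 and 5925 against 13666 and 5059 CPM overlapped.

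Other calls were isolated. COR414-TM1, a cold-regulated chloroplast membrane protein, had 106 and 273 CPM against 21.7 and 10.2 CPM (adjusted p = 0.0437), and CBP60G, an activator of salicylate synthesis, had 21.8 and 19.3 against 4.04 and 3.50 CPM (5.45-fold, adjusted p = 0.0187). HSP23.6, a mitochondrial small heat shock protein, had no read in A. thaliana against 8.08 and 6.58 CPM, at least 30.7-fold higher in A. lyrata (adjusted p = 0.0186). TCL1, a single-repeat MYB that represses trichomes, had 1.56 and 0.881 against 10.5 and 28.2 CPM (adjusted p = 0.0362). DCL2, a dicer of antiviral silencing, had 25.9 and 29.7 against 132 and 95.4 CPM (4.08-fold, adjusted p = 0.0257, edgeR throughout) with 10.2% of its A. thaliana span covered. Without A. lyrata library 2 the calls of COR414-TM1 (adjusted p = 0.0901), CBP60G (0.0592) and TCL1 (0.0671) were lost in edgeR, and that of COR414-TM1 also without covered pairs (0.0518) and with coding lengths restricted to within 10%. FER1, the leaf ferritin, had no A. thaliana read against 132 and 324 CPM, with 98.2% of its span covered by a noncoding locus.

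Housekeeping and cell cycle genes had overlapping sums in the species. None of 14 tested reference genes and none of 19 cell cycle genes was called by edgeR (3 and 0 at an unadjusted p under 0.05, 2 and 0 called by DESeq2), with median log2 ratios of 0.07 and 0.03. The reference genes summed to 2622, 3181, 2864 and 3077 CPM. The cell cycle genes summed to 381 and 184 CPM in A. thaliana and to 354 and 151 CPM in A. lyrata, so library 1 of each species had about 2 times the level of library 2 and the species ranges overlapped for all 19 genes. ACT2, a common reference for leaf expression, had 503 and 639 CPM against 219.8 and 264 CPM without passing the test (adjusted p = 0.0740).

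The called pairs were described by features that were not terms of the test. Counts were not scaled to gene length in the main setting, so coding length is not independent of the calls. Coding lengths lay within 10% of each other in 90.7% of all tested pairs, in 79.5% of those higher in A. thaliana and in 78.3% of those higher in A. lyrata. Among the latter 14.7% had an A. lyrata coding region more than 10% longer and 7.02% one more than 10% shorter, against 5.03% and 4.25% of all tested pairs. A transposon mark in the A. lyrata annotation was carried by 5.45% of tested pairs, 10.5% of those higher in A. thaliana and 11.7% of those higher in A. lyrata. Over the 5 A. thaliana chromosomes, 2.98% to 3.66% of tested pairs were called higher in A. thaliana and 4.74% to 5.43% higher in A. lyrata. Over the A. lyrata scaffolds 1 to 8 the shares were 2.61% to 3.81% and 3.85% to 6.47%, the last on scaffold 2.

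Promoter windows of A. thaliana, from 250 bases before to 50 after the annotated gene start in TAIR10.1, were searched on both strands for 5 motifs. The evening element (AAAATATCT) of clock genes was found in 3.06% of tested pairs, 2.32% of those higher in A. thaliana and 3.91% of those higher in A. lyrata. The G-box (CACGTG) was found in 9.17%, 9.27% and 8.75%, the W-box (TTGACC) in 14.2%, 14.8% and 12.3%, the I-box (GATAAG) in 14.8%, 18.5% and 16.1%, and the telo-box (AAACCCTA) in 5.50%, 4.28% and 7.25%. With covered pairs left out the I-box shares were 14.6%, 18.3% and 13.8%, so that for pairs higher in A. lyrata the share moved from above to below that of all pairs. These shares are descriptions of 1 genome only, and a match is not a binding site.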

How the data were processed

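Raw read counts per gene were used as the authors deposited them, in 1 table for A. thaliana (TAIR10 genes) and 1 for A. lyrata (version-2 models), from single-end, strand-unspecific poly(A) libraries. The submitters' processing notes name FastQC, TopHat and TAIR10, and the study's methods describe alignment to the A. lyrata reference assembly. The counting tool is not given in the sources used here. Without strand, a gene and its antisense partner cannot be told apart. The deposited annotation gave gene positions (unit other) and orthologs, and 10 further columns of RPKM or other tissues were not used. Names, lengths and promoters of A. thaliana came from RefSeq TAIR10.1.

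Counts were scaled to the total over the pairs. The species effect was tested with edgeR 4.0.16 (R 4.3.3; filterByExpr, glmQLFit, glmQLFTest; threshold 0.05), and DESeq2 1.42.0 was an alternative. In simulated counts for this comparison (17194 pairs tested) the test recovered 0 of 67 pairs changed by a log2 of 1. It recovered 24 of 67 changed by 2 and 50 of 65 changed by 3, and called 1 of 16995 unchanged pairs. The simulated counts had few changed pairs, a spread set by expression level alone and no shift shared by genes of a library. They therefore do not measure recovery or false calls under the library differences seen here. Intervals (95%, exact) and floors (3 reads per library) cover counting error only. List medians did not move with pairs at 0 set to their bound.

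Named were the 12 largest ratios in each direction (adjusted p under 0.05 also with an exon length offset, no overlap of species ranges, libraries within 2-fold, mean above 30 CPM, coding lengths within 10%, no transposon mark), the 2 called members of highest level per list and direction, and the 5 pairs with the most reads per species. Others were chosen after their values were seen. Pairs and lists were chosen with earlier results of these data known.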

Additional observations from a re-analysis of the deposited data

How the results depend on the processing

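With all settings at their main values 562 pairs were higher in A. thaliana and 873 in A. lyrata, and 7 and 22 list members. DESeq2 gave 1334 and 1811 pairs, and 28 and 58 members. Restricting to coding lengths within 10% gave 336 and 570 pairs, and 4 members higher in A. thaliana. Leaving out covered pairs gave 543 pairs and 13 members higher in A. lyrata. An exon length offset moved the split to 470 and 1175 pairs and the median log2 ratio to -0.16 (0.05 in the main setting). TMM scaling (595 and 1008), no filter on low counts (603 and 920), a coding length offset (621 and 919), pairs without the transposon mark (455 and 712) and a total without the top 50 pairs (606 and 916) stayed within 1.5 times. Leaving out 1 library gave 0 to 564 pairs higher in A. thaliana, 0 to 707 higher in A. lyrata, 0 to 18 members higher in A. thaliana and 0 to 26 higher in A. lyrata, and the lone library was then assumed to vary like the other species. The aliphatic glucosinolate sum stayed inside the range of its library ratios in each setting. This is no test of the sum, since the choice of model or block does not change a sum of CPM. A ratio with 1 library left out lies inside that range by construction.

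A replicate block gave 170 and 377 pairs and 8 members higher in A. lyrata. R1 minus R2 differences correlated at -0.174 between species over 17257 pairs. Genes are not independent replicates, so this correlation cannot decide whether library numbers pair the samples. A crossed replicate block, added after the data were seen, gave 432 and 717 pairs, 13 members higher in A. thaliana and 28 in A. lyrata. Of the 66 named genes only RCA, not called in any setting, changed sign, with a log2 ratio of -0.00028 under the exon length offset and of -0.14 to 0.42 with 1 library left out, negative without A. thaliana library 1 (-0.03) and without A. lyrata library 2 (-0.14). Of the named genes 17 lost their call under the replicate block, 9 without A. lyrata library 2, 44 without A. thaliana library 2 and 60 without A. thaliana library 1. The causes were not tested.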

Other observations

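The following 3 gene families outside the lists, chosen after their values were seen, are given as descriptions. The class II trehalose phosphate synthases TPS5 to TPS11, proteins related to the enzyme that makes the sugar signal trehalose 6-phosphate, summed to 1089 and 773 CPM in A. thaliana against 357 and 238 CPM in A. lyrata. Of the 7, 6 were higher in both A. thaliana libraries, beside 31% of all tested pairs, and 2 were called beside 3.26%, TPS11 and TPS8 (237 and 181 against 37.5 and 27.8 CPM, adjusted p = 0.0182, edgeR). TPS5 was the exception with 12.1 and 27.2 against 72.1 and 44.7 CPM (adjusted p = 0.124).

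Water channels of both membranes leaned towards A. thaliana. The 10 tonoplast members summed to 2924 and 2175 CPM against 934 and 659.8 CPM, and 3 of 4 tested were called, beside 3.26% of all tested pairs. These were DELTA-TIP, TIP2 (1463 and 981 against 329 and 268 CPM, adjusted p = 0.0389) and TIP2;2 (55.7 and 131 against 2.80 and 1.11 CPM, adjusted p = 0.0197, edgeR). GAMMA-TIP overlapped at 379.6 and 437 against 530 and 343 CPM. The 12 plasma membrane members summed to 4036 and 4930 CPM against 2428 and 1103 CPM, and 10 had a positive log2 ratio. Of the 12, 7 were separated towards A. thaliana and 1 towards A. lyrata, beside 31% and 28.9% of all tested pairs. Only PIP1C was called (475 and 325 against 62.1 and 27.0 CPM, adjusted p = 0.0358, edgeR). The A. lyrata libraries differed widely in several members, as in PIP2A with 652 and 113 CPM.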
